A study of Mus musculus with 6 samples.

Results

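The collagen chains were chosen by name alone, as every gene of the count table whose symbol reads Col, a number, the letter a and a number. This gave 34 of the 13226 genes counted, of which 10 encode fibrillar chains, 5 encode chains of basement membrane type IV collagen and 19 belong to other collagen families. The tibialis anterior (TA), the muscle at the front of the shin, was injected in male C57BL/6 mice of 8 weeks with AAV6:Yap-shRNA in one leg and a control vector in the other. AAV6 is an adeno-associated virus that enters muscle fibres, and the short hairpin RNA (shRNA) targets the transcript of Yap, a coactivator of transcription. Whole muscles were taken 7 days later, RNA was extracted with TRIzol, and polyadenylated RNA was sequenced from 3 control and 3 Yap-shRNA muscles of 3 animals. The vectors carried a CMV promoter, which is active in many cell types, and every muscle in the comparison had received a vector, so none was untouched. The sample titles describe the control as empty vector while the vector field names AAV6:LacZ-shRNA, and these muscles are called control here. The replicate numbers are not stated to be animals.

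Collagens are proteins of the extracellular matrix in which 3 alpha chains wind into a triple helix, a shape that needs glycine at regular places along each chain, 1 residue in every 3. Fibrillar collagens assemble outside the cell into the fibrils that bear load in tendon and in the connective tissue around fibres, type IV collagen forms the sheet of the basement membrane around each muscle fibre and capillary, and the other families link, anchor or space these structures. In skeletal muscle most fibrillar collagen is made by fibroblasts and tendon cells rather than by the fibres themselves. In whole muscle, fewer cells of a type and less RNA per cell cannot be told apart.

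The repeat that defines the family is visible in the genes. The sequences shown next are exons of 54 bases from the 3 most abundant fibrillar chains, in which capitals mark the glycine codons, together with a stretch of the Col4a1 coding sequence where that spacing breaks. All come from the GENCODE M21 transcripts of GRCm38 and run 5′ to 3′ on the coding strand. The Col1a1 exon is exon 8 of its principal transcript at chr11:94939904-94939957, the Col1a2 exon is exon 8 at chr6:4515481-4515534, and the Col3a1 exon is exon 6 at chr1:45325360-45325413, all on the plus strand and all protein coding.
Col1a1 exon: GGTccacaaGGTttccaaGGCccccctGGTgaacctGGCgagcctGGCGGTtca
Col1a2 exon: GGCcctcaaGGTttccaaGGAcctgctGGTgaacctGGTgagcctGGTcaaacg
Col3a1 exon: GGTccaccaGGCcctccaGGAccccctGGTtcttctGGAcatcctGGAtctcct
Col4a1 break: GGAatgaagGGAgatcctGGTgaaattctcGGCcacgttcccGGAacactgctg
In the fibrillar exons a glycine codon opens every triplet of codons, whereas in the Col4a1 stretch 3 codons instead of 2 separate some of the glycine codons. Counted over whole coding sequences, the longest unbroken run was 216 to 344 triplets in the fibrillar chains (median 338), 39 to 66 in the basement membrane chains (median 42) and 23 to 113 in the others (median 44). Exons of exactly 54 bases numbered 21 to 33 in the fibrillar chains and 1 to 3 in the basement membrane chains. Among the other families they ranged from 0 to 28, with the highest number in Col22a1.

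Another sequence bears on the type IV values, since Col4a1 and Col4a2 lie head to head on chromosome 8. The RefSeq promoters of both genes (GRCm38.p6) share the 78 bases at chr8:11312777-11312854, given here on the plus strand. Capitals mark the bases from the start of Col4a2, on the plus strand, to the start of Col4a1, on the minus strand.
Col4a1-Col4a2 shared start region: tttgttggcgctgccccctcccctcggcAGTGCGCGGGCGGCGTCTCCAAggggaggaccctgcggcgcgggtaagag
The starts lie 21 bases apart, and the annotated first exons overlap by 22 bases. Col4a3 and Col4a4 are also divergent neighbours, 71 bases apart on chromosome 1. Since the strand setting of the counting is not given in the sources used here, reads in the overlaps cannot be assigned to one gene with certainty. Such exon overlap with another annotated gene touched 10 of the 34 chains.

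Libraries held 11987167 to 12710393 counts, and the 10 most abundant genes took 27.0 to 28.5% of a library. Within groups, pairs of libraries differed beyond counting noise, with a chi-square over its degrees of freedom of 7.62 to 21.4, and none looked like a library deposited again. Markers of the muscle fibre such as Ckm and Acta1 summed to 148761 to 176043 CPM, so the defining genes of the labelled tissue were present. CPM are counts scaled to library size, per 1e6 counts, after adjustment between libraries by the TMM method. Yap1, the targeted gene, stood at 71.2, 65.3 and 68.4 CPM in control muscles and at 32.0, 23.9 and 39.5 CPM in Yap-shRNA muscles, with no overlap. Its log2 fold change was -1.10 (standard error 0.16), and the quasi-likelihood test of edgeR, adjusted over all genes by the Benjamini-Hochberg method, gave an adjusted p of 0.436. The exact permutation test gave p = 0.10, two-sided, the smallest that 3 muscles against 3 allow.

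No collagen chain passed the test for a difference between Yap-shRNA and control muscles. At an adjusted p under 0.05 the quasi-likelihood test called 0 of 34 chains, where it called 0 of 13226 genes (0%). By DESeq2 the count was 0 of 34, against 5 genes of the whole table (0.0378%). At an unadjusted p under 0.05 the quasi-likelihood test gave 0 of 34 chains and 232 of all genes (1.75%). None of the 34 had its 3 Yap-shRNA muscles all above the control muscles (2.56% of all genes) or all below them (2.71% of all genes). The lowest adjusted p of any chain was 0.9999. Of the log2 fold changes, 21 were above 0 and 13 below, with a median of 0.088, against a median of -0.0029 and 48.9% above 0 over all genes. These counts rested on single muscles: without Yap-shRNA muscle 3, 8 of 34 were above 0 with a median of -0.11, and without control muscle 1, 26 of 34 with a median of 0.37. Without control muscle 2 there were 16 above 0 (median -0.012), and without control muscle 3 there were 13 (median -0.041).

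**Figure D1:**
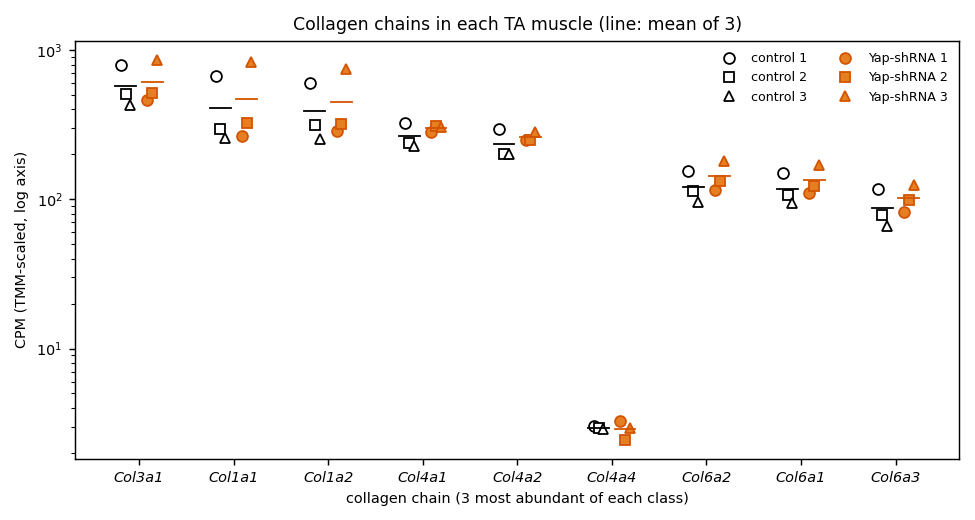
CPM on a log axis for the 3 most abundant chains of each class in each muscle, with open black symbols for control muscles, filled orange symbols for Yap-shRNA muscles, 1 symbol shape per replicate number and a line at the mean of 3. In Col3a1, Col1a1 and Col1a2 control muscle 1 and Yap-shRNA muscle 3 stood above the other 4 muscles, and in no chain were the groups apart.

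The fibrillar chains Col3a1, Col1a1 and Col1a2 had the highest CPM of the family, and most of their variation lay between muscles of the same group. Col3a1, which forms the type III fibrils of compliant connective tissue, stood at 790.4, 510.2 and 429.9 CPM in control muscles 1, 2 and 3 and at 462.6, 518.7 and 862 CPM in Yap-shRNA muscles 1, 2 and 3. Control muscle 1 and Yap-shRNA muscle 3 were the high ones, the other 4 lay close together, and the groups overlapped. The group means were 577 ± 189 and 614 ± 216 CPM (SD, n = 3 each), a log2 fold change of 0.09 (standard error 0.27, 95% interval -0.52 to 0.70, adjusted p = 0.9999).

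Col1a1 and Col1a2 encode the alpha1 and alpha2 chains of type I collagen, the main fibril of tendon and bone. Col1a1 was counted at 673, 296 and 259 CPM in control muscles and at 266, 325 and 826 CPM in Yap-shRNA muscles. Col1a2 was counted at 602, 317 and 253 CPM and at 288, 322 and 744 CPM in the same order. Both chains repeated the pattern of Col3a1, with 1 high muscle in each group and wide overlap. The log2 fold change was 0.21 for Col1a1 (standard error 0.46, 95% interval -0.83 to 1.24) and 0.21 for Col1a2 (standard error 0.40, 95% interval -0.69 to 1.10), each with an adjusted p of 0.9999. Their direction turned with single muscles. The log2 fold changes of Col1a1 and Col1a2 were -0.47 and -0.36 without Yap-shRNA muscle 3, -0.037 and -0.027 without control muscle 3, and 0.77 and 0.66 without control muscle 1.

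Type V collagen, which sits inside type I fibrils and limits their width, is built from Col5a1, Col5a2 and Col5a3. Their mean levels in control and Yap-shRNA muscles were 62.9 and 68.4 CPM for Col5a1, 47.6 and 51.4 CPM for Col5a2, and 58.0 and 67.5 CPM for Col5a3. Col5a2 was highest in control muscle 1, at 70.3 CPM, and the other 2 were highest in Yap-shRNA muscle 3. The type XI chains Col11a1 and Col11a2, best known from cartilage, were scarce, at means of 2.59 and 6.65 CPM in control and 2.00 and 5.13 CPM in Yap-shRNA muscles. Over the 6 muscles the highest was 5.74 times the lowest for Col11a1 and 4.93 times for Col11a2, against 3.19 times for Col1a1. Col11a1 had as few as 12 counts in a muscle and Col11a2 as few as 29. Their standard deviations of log2(CPM + 1) within groups were 0.81 and 0.86, against 0.81 for Col1a1. Col11a2 ran from 3.36 to 12.0 CPM over the control muscles and from 2.43 to 9.81 CPM over the Yap-shRNA muscles. Col24a1 and Col27a1, fibrillar chains with a shorter unbroken helix, stood at 3.43 and 1.59 CPM in control muscles and at 3.45 and 2.14 CPM in Yap-shRNA muscles. Across the 10 fibrillar chains 8 log2 fold changes were above 0 and 2 below, from -0.38 in Col11a1 to 0.43 in Col27a1, with a median of 0.12.

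The basement membrane chains were flatter across muscles. Col4a1 and Col4a2 together make the type IV collagen found in nearly all basement membranes. Col4a1 stood at 326, 240 and 227 CPM in control muscles and at 284, 310.4 and 306 CPM in Yap-shRNA muscles. Col4a2 stood at 297, 201 and 202 CPM and at 249, 249.8 and 283 CPM in the same order. For both chains the Yap-shRNA muscles lay above control muscles 2 and 3 and below control muscle 1, so the groups overlapped through that muscle alone. The log2 fold change was 0.18 for Col4a1 (standard error 0.14, 95% interval -0.13 to 0.50) and 0.16 for Col4a2 (standard error 0.16, 95% interval -0.19 to 0.51), with adjusted p of 0.9999. Without control muscle 1 they were 0.36 and 0.37, at adjusted p of 0.520 and 0.535 by the same edgeR test, and these were the lowest 2 adjusted p among the chains in that fit. Leaving out another control muscle made them smaller, at 0.083 and 0.065 without control muscle 3 and 0.12 and 0.061 without control muscle 2. Without Yap-shRNA muscle 1 both were larger, at 0.22 and 0.19. They were 0.16 and 0.19 without Yap-shRNA muscle 2, and 0.17 and 0.094 without Yap-shRNA muscle 3. Without both control muscle 1 and Yap-shRNA muscle 3 they were 0.35 and 0.31, each at an adjusted p of 0.868.

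Col4a3, Col4a4 and Col4a5, whose network is best known from the filter of the kidney, were scarce. Col4a4 stood at 3.04, 2.93 and 2.87 CPM in control muscles and at 3.27, 2.46 and 2.95 CPM in Yap-shRNA muscles, with a log2 fold change of -0.03 (standard error 0.21, 95% interval -0.50 to 0.45, adjusted p = 0.9999). The control muscles fell within the range of the Yap-shRNA muscles. Means in control and Yap-shRNA muscles were 2.43 and 2.39 CPM for Col4a5 and 2.36 and 2.11 CPM for Col4a3. Over the 5 basement membrane chains 2 log2 fold changes were above 0 and 3 below, with a median of -0.028.

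Among the other families type VI collagen was the most abundant. It forms beaded microfibrils next to the basement membrane from the chains Col6a1, Col6a2 and Col6a3. Col6a1 stood at 149.99, 107 and 93.9 CPM in control muscles and at 109, 123 and 170.2 CPM in Yap-shRNA muscles. Col6a2 stood at 154, 114 and 95.3 CPM and at 115, 133 and 180.1 CPM, and Col6a3 at 118, 78.8 and 66.0 CPM and at 82.2, 98.6 and 124 CPM. In all 3 chains Yap-shRNA muscle 3 was the highest, control muscle 1 the next and control muscle 3 the lowest. The log2 fold changes were 0.20 (standard error 0.20, 95% interval -0.26 to 0.66) for Col6a1, 0.24 (standard error 0.20, 95% interval -0.22 to 0.69) for Col6a2 and 0.22 (standard error 0.22, 95% interval -0.27 to 0.71) for Col6a3, all with an adjusted p of 0.9999. With single muscles left out they ran from -0.0095 to 0.42 for Col6a1, from 0.035 to 0.45 for Col6a2 and from 0.046 to 0.49 for Col6a3, lowest without Yap-shRNA muscle 3 and highest without control muscle 1. Col6a6, a later-found type VI chain, varied 1.30 times between its highest and lowest muscle, against 1.81 to 1.89 times for the other 3, and stood at 7.89 ± 1.00 CPM in control and 6.99 ± 0.31 CPM in Yap-shRNA muscles (SD, n = 3), a log2 fold change of -0.18 (standard error 0.16).

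The remaining chains are described from values picked after they were seen. The steadiest were Col15a1, a proteoglycan collagen of muscle and capillary basement membranes, and Col7a1, the chain of anchoring fibrils. Col15a1 stood at 65.4 ± 8.62 CPM in control and 66.5 ± 2.95 CPM in Yap-shRNA muscles, and Col7a1 at 25.4 ± 1.40 and 23.3 ± 2.72 CPM (SD, n = 3 each). Col18a1, the source of endostatin, was at 17.1 ± 0.96 and 18.2 ± 5.70 CPM.

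The widest swings were in Col12a1 and Col8a2. Col12a1, which coats the surface of type I fibrils, stood at 12.2, 3.01 and 1.72 CPM in control muscles and at 2.77, 2.15 and 18.5 CPM in Yap-shRNA muscles. Col8a2, a short chain of network-forming type VIII collagen, stood at 4.05, 0.50 and 0.57 CPM and at 0.59, 0.69 and 5.58 CPM. Col22a1, a chain of the junction between muscle and tendon, stood at 28.6, 7.52 and 11.3 CPM and at 11.7, 8.22 and 27.5 CPM. In all 3, control muscle 1 and Yap-shRNA muscle 3 were the high muscles, and the other 4 lay far below. Their log2 fold changes were 0.46 (standard error 0.86), 0.41 (standard error 0.96) and -0.0083 (standard error 0.53), each smaller than its error.

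Col14a1 and Col16a1, which also associate with fibrils, had means of 12.6 and 8.36 CPM in control muscles and 14.9 and 10.3 CPM in Yap-shRNA muscles, and both were highest in Yap-shRNA muscle 3. Col8a1, the partner of Col8a2, was at 5.71 CPM in control and 6.27 CPM in Yap-shRNA muscles. Col9a1, a fibril-associated chain best known from cartilage, and Col20a1 were at 4.38 and 5.54 CPM in control and at 3.95 and 4.65 CPM in Yap-shRNA muscles. The transmembrane collagens Col13a1 and Col23a1, and Col26a1 and Col28a1, had group means between 0.75 and 2.56 CPM. Col28a1 had the lowest log2 fold change of the family, -0.66, with a standard error of 0.43. Over the 19 chains outside the fibrillar and basement membrane classes, 11 log2 fold changes were above 0 and 8 below, with a median of 0.073.

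**Figure D2:**
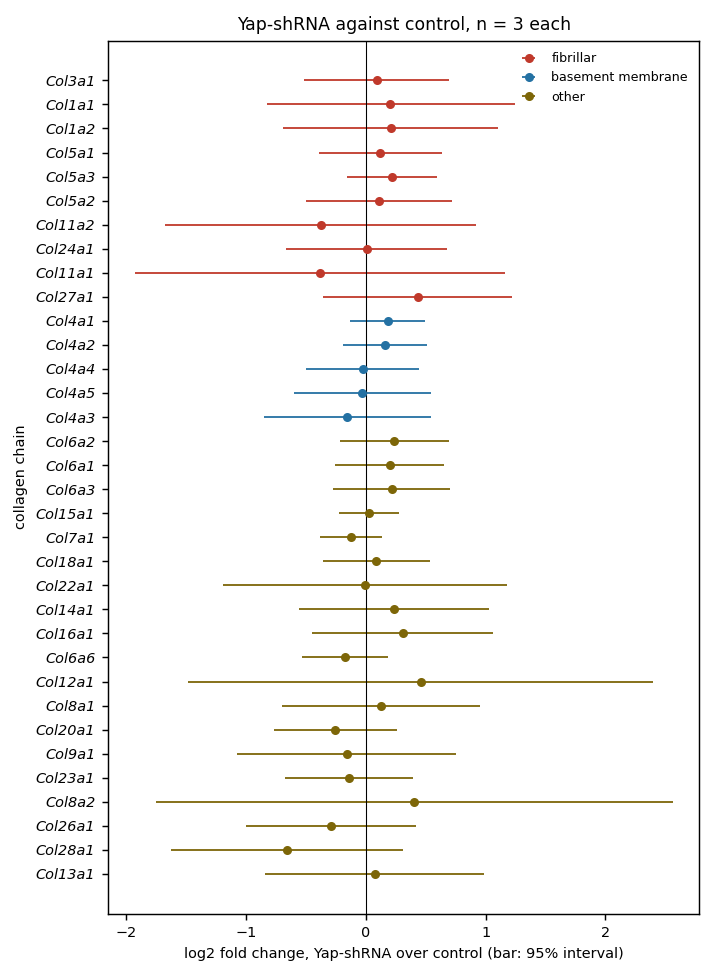
Log2 fold change of each chain, Yap-shRNA over control (n = 3 each), with its 95% interval as a bar, in red for fibrillar, blue for basement membrane and brown for other chains. All 34 intervals include 0, and the widest are those of Col8a2 and Col12a1.

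The chains differed in how far they spread between muscles. The ratio of the highest to the lowest muscle had a median of 2.45 over the fibrillar chains, 1.48 over the basement membrane chains and 1.89 over the others, against 1.43 over the genes with no muscle at 0 in the whole table. It reached 11.1 in Col8a2, 10.7 in Col12a1, 5.74 in Col11a1 and 4.93 in Col11a2, and was lowest in Col15a1, at 1.28. Control muscle 1 was the highest of the 6 in 12 chains and Yap-shRNA muscle 3 in 13, beside 22.1% and 15.4% of all genes. These 2 muscles held the top 2 places in 20 of 34 chains, whereas they did so in 11.3% of all genes. The 2 muscles were picked out after the collagen values were seen, and the chains share the same libraries. Counts of genes highest in these muscles, here and in the lists below, are therefore descriptions and carry no test. The lowest muscle was control muscle 3 in 15 chains, and the share over all genes was not computed for this. The standard deviation of log2(CPM + 1) within groups was above 0.5 in 11 of the 34 chains and in 3.01% of all genes, a boundary chosen after the values were seen.

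**Figure D3:**
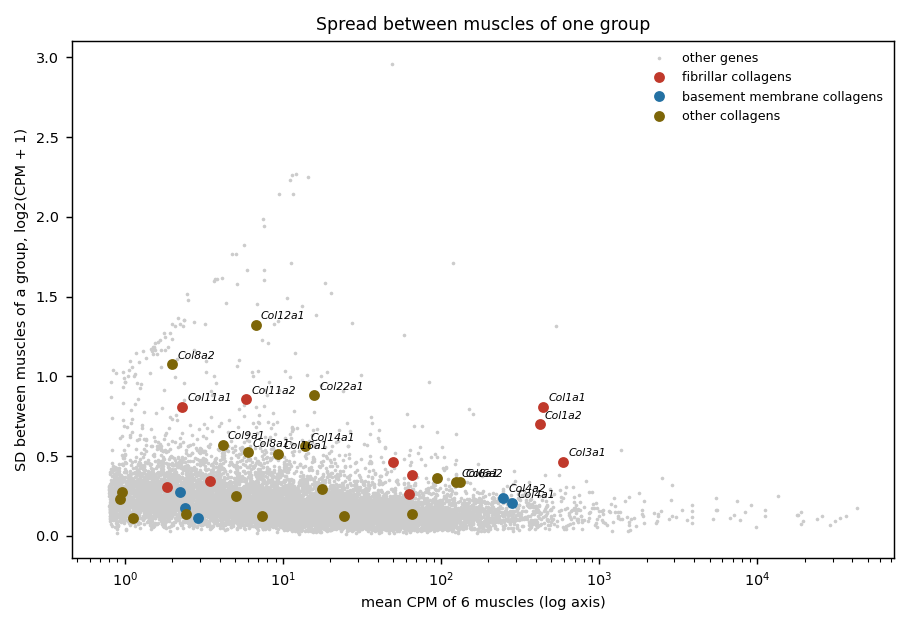
Standard deviation between muscles of a group, in log2(CPM + 1), against mean CPM on a log axis, for all 13226 genes in grey and collagen chains in colour by class. Col1a1 and Col1a2 stand above most genes of their level, while Col4a1 and Col4a2 lie lower.

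**Figure D4:**
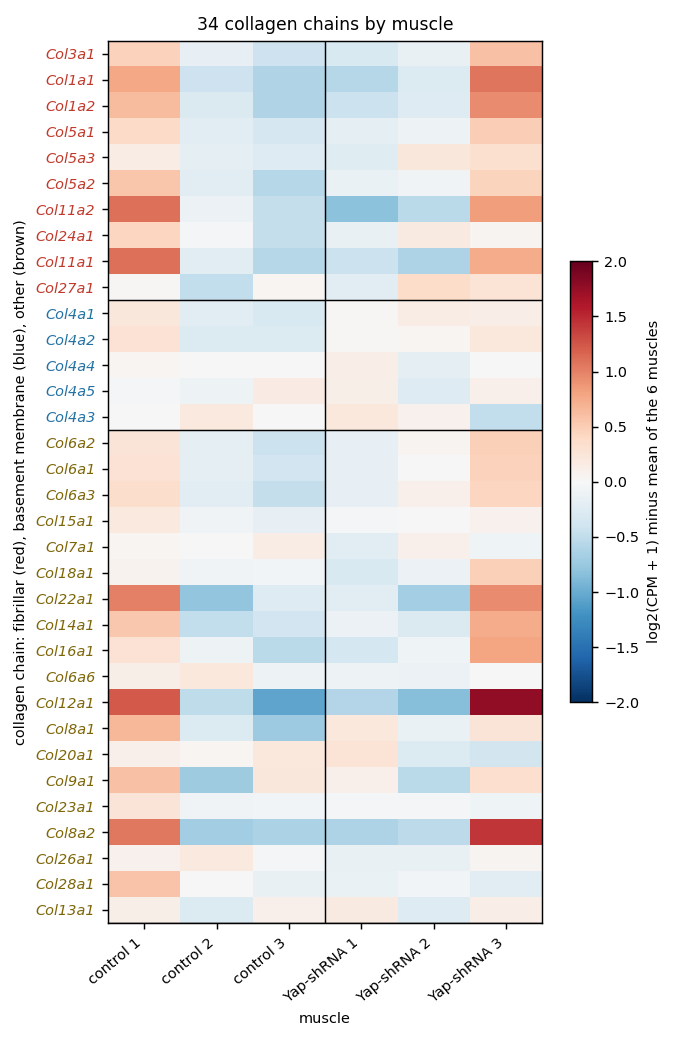
Deviation of log2(CPM + 1) from the mean of the 6 muscles for each of the 34 chains, with red above and blue below the mean, rows grouped by class and ordered by level. Control muscle 1 and Yap-shRNA muscle 3 are red in most fibrillar rows, and the basement membrane rows are paler. Among the latter, Col4a3, Col4a4 and Col4a5 have means of 2.24, 2.92 and 2.41 CPM, where the added 1 shrinks deviations.

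Summed over the 34 chains, collagen took 3595, 2188 and 1934 CPM in control muscles 1, 2 and 3 and 2184, 2436 and 3991 CPM in Yap-shRNA muscles 1, 2 and 3. These sums are 0.19 to 0.39% of the counts of a library. The fibrillar sum varied 2.48 times between its highest and lowest muscle and the basement membrane sum 1.44 times.

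Markers of tendon moved with these muscles. The 8 tendon markers in the table summed to 712, 186 and 132 CPM in control muscles and to 178, 150.5 and 584 CPM in Yap-shRNA muscles. Of these, 8 of 8 were highest in control muscle 1 or Yap-shRNA muscle 3, the highest muscles in 22.1% and 15.4% of all genes. Among them Fmod, a proteoglycan that binds collagen fibrils, stood at 299.5, 49.2 and 30.6 CPM in control muscles and at 36.0, 31.4 and 267 CPM in Yap-shRNA muscles. The defining marker Tnmd, at 15.3, 3.93 and 3.04 CPM and at 2.68, 2.38 and 16.8 CPM, was above 0 in every muscle. The part of the tendon signal in the collagen levels was not tested.

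Markers of other cell types were summed in the same way. The 12 fibroblast markers summed to 1755, 1556 and 1281 CPM in control muscles and to 1898, 1471 and 2191 CPM in Yap-shRNA muscles. Yap-shRNA muscle 3 was thus the highest, Yap-shRNA muscle 1 the next and control muscle 1 came after it. Their median log2 fold change was 0.18. Of the 12 markers, 11 were highest in control muscle 1 or Yap-shRNA muscle 3, the highest muscles in 22.1% and 15.4% of all genes. Pdgfra and Lum were highest in control muscle 1, Smoc2 in Yap-shRNA muscle 1 and the rest in Yap-shRNA muscle 3. By the quasi-likelihood test 3 of the 12 had an unadjusted p under 0.05, namely Dpt, Pi16 and Ly6a, beside 1.75% of all genes. None passed the adjusted test. The 10 macrophage markers summed to 100.4 to 236 CPM in control and to 172 to 222 CPM in Yap-shRNA muscles, with 0 past the test. All 10 of their log2 fold changes were above 0, beside 48.9% over all genes, with a median of 0.34. The 9 endothelial markers, whose cells lay down type IV collagen, stayed between 513 and 562 CPM over the 6 muscles. Of the other lists, the medians of the log2 fold changes were 0.017 over 8 Schwann cell markers, -0.29 over 6 smooth muscle markers, 1.08 over 6 adipocyte markers and -0.048 over 10 muscle fibre markers, with 0 genes past the test. Of the adipocyte list, Adipoq, Plin1, Cfd, Lep and Cidec were highest in Yap-shRNA muscle 3. Adipoq stood there at 16.3 CPM, against 1.59 to 4.75 CPM in the other 5 muscles, and Cfd at 50.1 CPM, against 8.03 to 14.01 CPM. Fabp4, the most abundant of the list, was lowest there, at 205 CPM against 218 to 258 CPM, with a log2 fold change of -0.098. The adipocyte median without that muscle was not computed. The part of these cell types in the collagen values was not tested.

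**Figure D5:**
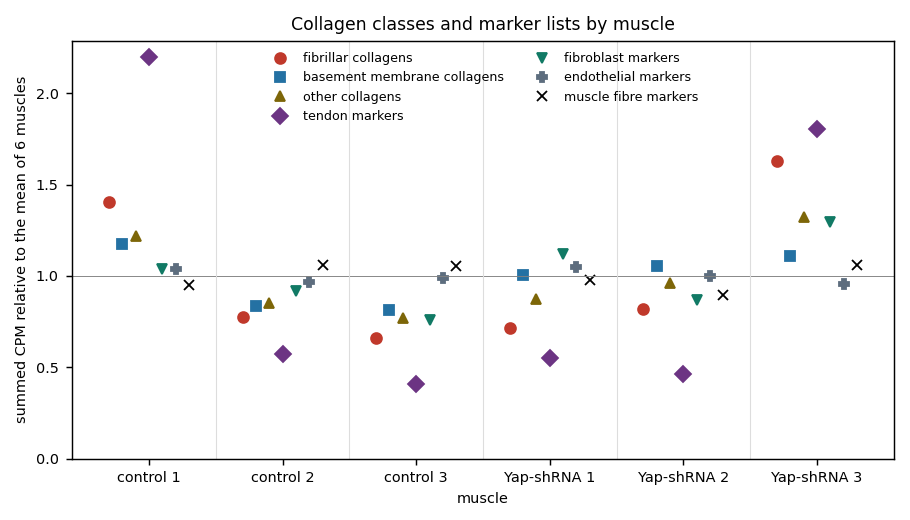
Summed CPM of the 3 collagen classes and of 4 marker lists in each muscle, divided by the mean of the 6 muscles, with 1 symbol per class or list. Fibrillar collagens and tendon markers are high in control muscle 1 and Yap-shRNA muscle 3, whereas endothelial and muscle fibre markers stay near 1 in every muscle.

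Levels of different chains were compared per kilobase of the principal transcript. On this scale Col3a1 was the highest, at a mean of 107 CPM per kb, followed by Col1a2 at 78.7, Col1a1 at 74.3, Col4a1 at 42.6, Col4a2 at 38.3, Col6a2 at 33.4 and Col6a1 at 30.6 CPM per kb. Col15a1, Col6a3 and Col5a3 came next, at 12.8, 10.5 and 10.3 CPM per kb, and Col28a1 was the lowest at 0.23. Neighbours in this order from Col3a1 to Col6a1 differed by less than the SD between muscles of at least 1 of their groups. Within muscles the order was firmer for some pairs, since Col3a1 exceeded Col1a1 and Col4a1 exceeded Col4a2 in each of the 6. The order rests on the length used. With all annotated exons Col1a1 came first, at 67.2 CPM per kb, followed by Col3a1 at 60.7, Col4a1 at 37.8, Col4a2 at 37.3, Col1a2 at 33.9, Col6a1 at 28.7 and Col6a2 at 15.8, and the mean ratios of Col3a1 to Col1a1 and of Col4a1 to Col4a2 were 0.996 and 1.02.

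Ratios between partner chains of the same molecule were computed in each muscle. The ratio of Col1a1 to Col1a2 per length was 1.01, 0.84 and 0.92 in control muscles and 0.83, 0.91 and 1.00 with Yap-shRNA, giving a mean of 0.92 ± 0.074 (SD, 6 muscles), while Col1a1 itself varied 3.19 times. The ratio of Col4a1 to Col4a2 was 1.12 ± 0.061 and that of Col6a1 to Col6a2 was 0.92 ± 0.023. Col5a1 to Col5a2 stood at 1.06 ± 0.11, and Col6a3 to Col6a1 at 0.34 ± 0.017. The absolute values depend on the length used: with all annotated exons the ratio of Col1a1 to Col1a2 became 1.93 and that of Col6a1 to Col6a2 1.81. Of ratios between molecules only 2 were computed, both with Col1a1 and both chosen after the values were seen. Col1a1 to Col4a1 ran from 1.05 in Yap-shRNA muscle 1 to 3.02 in Yap-shRNA muscle 3, and Col3a1 to Col1a1 from 1.11 to 1.86. The groups overlapped in every ratio.

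The genes whose pattern was most like that of Col1a1 were ranked by Pearson's r of log2(CPM + 1) over the 6 muscles, among genes with a mean of at least 1 CPM. Col13a1 and Col28a1, at means of 0.94 and 0.96 CPM, were not ranked. Among the chains these were Col1a2 (r = 0.995), Col3a1 (r = 0.994), Col5a1 (r = 0.992), Col8a2 (r = 0.990) and Col12a1 (r = 0.979). Outside the family they were Sulf2 (r = 0.997), Abi3bp (r = 0.994), Cd109 (r = 0.993), Map1b (r = 0.992) and Tmem8 (r = 0.992). The least like were Col7a1 (r = -0.13), Col20a1 (r = -0.57) and Col4a3 (r = -0.81). The points share 6 libraries and rest on the 2 high muscles, so the values describe likeness and carry no test.

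The machinery that builds collagen was listed apart from the chains, and none of its genes passed the test in either direction. Of the enzymes and chaperones that hydroxylate, glycosylate and fold the chains, 18 were measured, with 13 log2 fold changes above 0 and 5 below and a median of 0.027, and 9 of the 18 were highest in control muscle 1 or Yap-shRNA muscle 3. Serpinh1, the collagen chaperone HSP47, stood at 109.7, 96.4 and 81.9 CPM in control muscles and at 107, 107.9 and 125 CPM in Yap-shRNA muscles, with overlapping groups. The 6 secretion genes, among them the cargo receptor Mia3, had a median of 0.021, and 3 of the 6 were highest in those muscles. The 10 genes of procollagen cleavage and crosslinking had a median of 0.28, with 8 above 0 and 2 below, and 10 of 10 were highest in control muscle 1 or Yap-shRNA muscle 3. Lox, the enzyme that starts the covalent crosslinks of fibrils, stood at 15.1, 6.69 and 3.36 CPM and at 5.45, 7.06 and 33.9 CPM, so its high muscles were those of the fibrillar chains. The 7 collagen receptors had a median of 0.025, and 7 of 7 were highest in control muscle 1 or Yap-shRNA muscle 3. Such a count does not show that a gene was high in both muscles. Itgb1, Itga11, Ddr2 and Mrc2 were higher in both than in any other muscle. Itga10 stood at 3.04 CPM in control muscle 1 but 1.20 CPM in Yap-shRNA muscle 3, and Itga1 at 6.93 and 5.02 CPM. Ddr1 stood at 20.4 CPM in control muscle 1, below control muscle 3 at 23.8 CPM. Over all genes control muscle 1 was the highest in 22.1% and Yap-shRNA muscle 3 in 15.4%.

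Promoters were searched because Yap acts through TEAD factors, which bind a short motif. Of the 34 chains 27 had at least 1 RefSeq promoter window, 250 bases before to 50 after the start (GRCm38.p6), with 30 windows in all. The TEAD core GGAATG, on either strand, was found in 4 of the 30 windows, those of Col3a1, Col6a2, Col18a1 and Col20a1. It was in 14.7% of the 32851 windows of all genes. The TATA box TATAAA was in 3 of the 30 windows, beside 13.6% of all windows, and CCAAT in 10, beside 37.4%. The GC box GGGCGG was in 18 of the 30 windows, from 17 genes, beside 35.7% of all windows. These are matches of letters, not binding sites. Col4a1 and Col4a2 share part of 1 window, so they are not independent, and both hold the GC box and CCAAT.

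The annotation lists 44 genes whose symbols follow the collagen pattern. The 10 not analysed here are Col2a1, Col4a6, Col6a4, Col6a5, Col9a2, Col9a3, Col10a1, Col17a1, Col19a1 and Col25a1.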

How the data were processed

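RNA was measured in 6 TA muscles. The authors deposited a table of raw counts, not normalised. The submitters' processing notes name bcl2fastq 2.20.0.422 and the build GRCm38, and the aligner, counter and strand setting are not given in the sources used here. No gene had under 60 reads over the 6 libraries, so genes below that level are not analysed here. Counts were scaled by TMM and tested over all 13226 genes with edgeR 4.0.16 (quasi-likelihood, a model of group alone, run under R 4.3.3) and adjusted by Benjamini-Hochberg at 0.05, after the scripts were tested on simulated data. P-values set the difference between groups against the spread between muscles of a group, with the 6 muscles treated as independent. The pairing of legs within animals is not in the main model. Alternatives were DESeq2 1.42.0, limma 3.58.1 (voom), the likelihood ratio test, upper-quartile scaling, at least 10 counts in every sample, a replicate block and leaving out muscles. Positions, exons and transcript lengths came from GENCODE M21, matched by gene ID for 34 of 34 chains, and promoters from RefSeq. The naming rule that gave the members, and the lists, were set with earlier results of these data known. Counts over the lists are therefore descriptions and not independent support. Named in full by rule were Yap1, the 3 chains of highest mean CPM in each class and any chain past a threshold, of which there were none. The tendon gene Mkx, 1 modifying enzyme (P4ha3), 3 processing enzymes and 2 receptors on the lists were not in the table.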

Additional observations from a re-analysis of the deposited data

How the results depend on the processing

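The fold changes of the named chains kept their direction in 54 of 54 fits under the other tests, scalings, filter and block, and in 46 of 54 fits without a muscle. The exceptions were Col3a1 (-0.23 to 0.39 on the log2 scale, lowest and highest without a muscle), Col1a1 (-0.47 to 0.77), Col1a2 (-0.36 to 0.66), Col4a4 (-0.12 to 0.078) and Col6a1 (-0.0095 to 0.42). The median of the fibrillar chains ran from -0.18 without Yap-shRNA muscle 3 to 0.45 without control muscle 1, that of the other chains from -0.16 to 0.24, and that of the basement membrane chains from -0.12 without Yap-shRNA muscle 1 to 0.13 without Yap-shRNA muscle 2. Without control muscle 1 and Yap-shRNA muscle 3 together, a setting chosen after seeing the data, the basement membrane median was 0.049. Genes called at an adjusted p under 0.05 were 5 by the likelihood ratio test, 5 by DESeq2, 0 to 1 without a muscle (1 without Yap-shRNA muscle 3) and 3 without both muscles. Collagen chains called were 0 in every fit run. Chains with an unadjusted p under 0.05 were 0 to 7 without a muscle and 4 without both muscles. The 7, without control muscle 1, were Col6a1, Col6a2, Col5a2, Col4a1, Col4a2, Col6a3 and Col8a1, where 7.24% of all genes had such a p. Yap-shRNA muscle 1 left out gave 2 (Col5a3 and Col20a1, beside 1.49% of all genes) and Yap-shRNA muscle 3 left out gave 1 (Col11a2, beside 1.40%). The 4 without both were Col4a1, Col4a2, Col6a3 and Col8a1, where 5.57% of all genes had one. Yap1 had a log2 fold change of -1.10 and an adjusted p of 2.22e-06 by the likelihood ratio test, and -1.10 and 5.85e-07 by DESeq2. With the replicate number as a block, 0 genes were called and the median over the 34 chains was 0.082. The numbers were not taken as pairs because the labels do not say that they mark animals. Deviations from the group means had correlations of -0.065, 0.196 and -0.315 between same-numbered muscles. Over the 9 pairs of a control and a Yap-shRNA muscle the highest was 0.383, between control muscle 1 and Yap-shRNA muscle 3. These correlations cannot decide the pairing, since deviations from a mean of 3 muscles depend on one another. The causes of the changes between fits were not tested. With 3 muscles a group, the 95% interval of the log2 fold change ran from -0.83 to 1.24 for Col1a1 and from -0.13 to 0.50 for Col4a1.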
